A study of Mus musculus with 15 samples.

Results

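The 10 genes described here are used as signs of fat cells and of fat synthesis in a tissue, and were measured in tibialis anterior muscle of wild-type and *Mtm1*-deficient mice with and without tamoxifen. They are *Adipoq*, *Plin1*, *Cidec*, *Lep*, *Cfd*, *Fabp4*, *Car3*, *Pparg*, *Fasn* and *Scd1*, chosen by symbol from a list and found by their Ensembl identifiers in the GRCm38 annotation. The count table held 30672 genes, all 10 listed genes were in it, and all 10 were among the 15533 that passed the filter on low counts. All 15 samples were tibialis anterior muscles of 7-week-old 129Pas males, in 4 groups. WT mice (n = 4) were untreated wild types, WT + TAM mice (n = 4) were wild types given tamoxifen, Mtm1-/y mice (n = 4) were untreated males with the *Mtm1*-deficient genotype, and Mtm1-/y + TAM mice (n = 3) had that genotype and were given tamoxifen. *Mtm1* is the X-linked gene for myotubularin, a phosphoinositide phosphatase whose loss causes myotubular myopathy, and tamoxifen, abbreviated TAM, binds oestrogen receptors as a modulator. How much was given, by which route and for how long were not given in the sources used here.

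Libraries held 18042558 to 45823277 counts, and 1 count corresponded to 0.0224 to 0.0530 CPM (counts scaled by library size and the TMM factor). Counts of *Mtm1* were 13.5 to 17.7 CPM in the 8 wild-type libraries and 2.91 to 3.71 CPM in the 7 mutant libraries, so no library went against its genotype label. Fast muscle fibre markers summed to between 138562 and 221188 CPM in every library, as the labelled muscle has. The labels do not say that samples of a group came from separate litters or days, and p-values below measure only the spread between these samples. WT + TAM replicate 1 stood apart from the other 14 libraries in the genes described here, and each result that rests on it is given with and without it.

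A white fat cell stores triglyceride in a lipid droplet and secretes hormones, and muscle holds a variable number of such cells between its fibres and along its fascia. *Adipoq* (adiponectin), *Lep* (leptin) and *Cfd* (adipsin, a complement protease) encode secreted products of the fat cell, and *Plin1* (perilipin 1) and *Cidec* encode proteins that coat its lipid droplet and let droplets fuse. *Pparg* encodes the nuclear receptor that drives fat cell differentiation, and *Fasn* and *Scd1* encode fatty acid synthase and stearoyl-CoA desaturase, which make and desaturate fatty acids in fat, liver and other tissues. *Fabp4*, a fatty acid carrier, is also made by capillary endothelium, and *Car3*, carbonic anhydrase III, is abundant in slow muscle fibres as well as in fat cells.

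The genes were spread over 7 chromosomes, with *Cidec*, *Lep* and *Pparg* on chromosome 6, and none shared exon bases with another annotated gene. In GRCm38 coordinates of GENCODE M21, *Adipoq* (ENSMUSG00000022878) spans chr16:23146536-23158028 on the plus strand, *Plin1* (ENSMUSG00000030546) chr7:79720218-79732903 on the minus strand, *Cidec* (ENSMUSG00000030278) chr6:113424634-113435760 on the minus strand, *Lep* (ENSMUSG00000059201) chr6:29060220-29073877 on the plus strand and *Cfd* (ENSMUSG00000061780) chr10:79890853-79892655 on the plus strand. *Fabp4* (ENSMUSG00000062515) spans chr3:10204088-10208576 on the minus strand, *Car3* (ENSMUSG00000027559) chr3:14863512-14872523 on the plus strand, *Pparg* (ENSMUSG00000000440) chr6:115360951-115490399 on the plus strand, *Fasn* (ENSMUSG00000025153) chr11:120805846-120824547 on the minus strand and *Scd1* (ENSMUSG00000037071) chr19:44394455-44407879 on the minus strand. All are protein coding, and counts are over their exons. *Pparg* has an antisense gene, Gm44079, inside its span with no exon base in common.

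The promoters of 4 genes that varied together across libraries are shown first, since their levels set the main pattern below. Each sequence is the 250 bases before the RefSeq start in GRCm38.p6, read 5′ to 3′ on the gene's own strand, with capitals marking matches to the motifs searched. *Adipoq* is at chr16:23146286-23146535 (plus), *Cidec* at chr6:113435761-113436010 (minus), *Lep* at chr6:29059971-29060220 (plus) and *Cfd* at chr10:79890603-79890852 (plus).
Adipoq: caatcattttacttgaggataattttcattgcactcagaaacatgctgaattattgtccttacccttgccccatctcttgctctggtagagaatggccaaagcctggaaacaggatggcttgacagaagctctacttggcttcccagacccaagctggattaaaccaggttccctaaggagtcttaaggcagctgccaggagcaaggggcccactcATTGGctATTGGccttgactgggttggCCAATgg
Cidec: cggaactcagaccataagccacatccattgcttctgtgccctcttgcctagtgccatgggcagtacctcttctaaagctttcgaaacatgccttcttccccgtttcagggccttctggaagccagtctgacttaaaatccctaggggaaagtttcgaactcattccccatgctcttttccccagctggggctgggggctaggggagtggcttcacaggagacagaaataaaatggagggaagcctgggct
Lep: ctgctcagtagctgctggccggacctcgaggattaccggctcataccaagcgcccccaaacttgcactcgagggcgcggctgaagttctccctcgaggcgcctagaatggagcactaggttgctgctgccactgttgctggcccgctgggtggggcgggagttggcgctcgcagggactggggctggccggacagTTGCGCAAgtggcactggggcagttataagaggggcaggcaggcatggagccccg
Cfd: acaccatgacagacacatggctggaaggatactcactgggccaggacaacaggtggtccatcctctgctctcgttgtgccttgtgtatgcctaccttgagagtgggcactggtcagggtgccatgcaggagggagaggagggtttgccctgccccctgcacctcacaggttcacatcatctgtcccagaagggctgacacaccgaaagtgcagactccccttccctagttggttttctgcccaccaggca

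The motifs searched, on both strands, were AGGTCA (a nuclear receptor element of the kind *Pparg* binds), the CCAAT box, the TATA box in the form TATAAA, and TTGCNNAA (an element of C/EBP factors). The *Adipoq* window held 3 matches to CCAAT, at 30, 23 and 3 bases before the start, and the *Lep* window held 1 match to TTGCNNAA, at 48 bases before it. No match lay in the windows of *Cidec* and *Cfd* that are shown. *Cidec* has 2 RefSeq starts, and the window of the other one (chr6:113434765-113435014, minus) held 1 match to TTGCNNAA, at 191 bases before that start. The window of *Plin1*, which is not shown because 127 of its bases lie in an annotated exon, held 2 matches to TTGCNNAA, at 180 and 51 bases. *Lep*, *Plin1* and the other start of *Cidec* thus had a match to TTGCNNAA in common. Of 32851 windows of the same length, 33.8% held CCAAT, 9.56% held TTGCNNAA, 14% held AGGTCA and 12.4% held TATAAA. The GC content of the windows was 48.8% for *Adipoq*, 52.8% for *Cidec*, 65.6% for *Lep* and 57.6% for *Cfd*.

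Compared per length in untreated wild-type muscle (TPM, computed from counts and exon lengths), the levels spanned from *Car3* to *Lep*. Each length was all annotated exon bases of a gene merged, so the order depends on the annotation. It was 4489 bases for *Fabp4*, its whole span, 4649 for *Plin1* and 1856 for *Cidec*. In CPM, *Plin1* (mean 1.05 in WT) and *Cidec* (1.07) were nearly equal. *Car3* was at a median of 3294 TPM (2399.8 to 3475, n = 4) and *Fabp4* at 118 TPM (98.3 to 129.8). *Cfd* followed at 14.5 TPM (6.24 to 16.6) and *Scd1* at 11.9 TPM (8.65 to 14.5), and these ranges overlapped. *Fasn* was at 3.81 TPM (3.46 to 3.97), *Pparg* at 3.23 TPM (2.29 to 3.94) and *Adipoq* at 3.11 TPM (1.91 to 4.00), with each overlapping its neighbour. The lowest were *Cidec* at 1.55 TPM (1.17 to 1.69), *Plin1* at 0.554 TPM (0.429 to 0.782) and *Lep* at 0.463 TPM (0.140 to 0.602), of which only the last pair overlapped. The genes known as particular to fat cells were thus low in this muscle, and the most abundant ones, *Car3* and *Fabp4*, are also made by other cells of muscle.

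*Adipoq*, an abundant hormone of fat cells, was at 1.11, 1.94, 2.08 and 1.35 CPM in the WT libraries (replicates in order) and at 12, 1.43, 0.965 and 0.0381 CPM in the WT + TAM libraries. In the Mtm1-/y libraries it was at 0.654, 0.645, 0.477 and 0.134 CPM, and in the Mtm1-/y + TAM libraries at 0.636, 2.89 and 1.38 CPM. WT + TAM replicate 1 was above all others and WT + TAM replicate 4 below all others, with 294 counts in the first and 1 count in the second. All 4 Mtm1-/y libraries lay below the 4 WT libraries, and the other pairs of groups overlapped.

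*Plin1*, the perilipin of the white fat cell's droplet, was at 0.836, 1.42, 1.11 and 0.821 CPM in the 4 untreated wild types and at 11.2, 0.918, 0.796 and 0.153 CPM in WT + TAM. In Mtm1-/y it was at 0.418, 0.524, 0.286 and 0.0448 CPM, and in Mtm1-/y + TAM at 0.848, 1.77 and 1.01 CPM. The same treated wild-type library was highest, Mtm1-/y replicate 4 was lowest with 2 counts, and the untreated mutants lay below both the WT and the Mtm1-/y + TAM libraries without overlap.

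*Cidec*, which joins lipid droplets into larger ones, was at 0.910, 1.22, 1.06 and 1.09 CPM in the 4 untreated wild types and at 11, 1.02, 0.748 and 0.0381 CPM in WT + TAM. It was at 1.36, 0.686, 0.794 and 0.202 CPM in Mtm1-/y and at 1.01, 1.99 and 0.982 CPM in Mtm1-/y + TAM. Here the groups overlapped, since Mtm1-/y replicate 1 lay above every WT library.

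*Lep* was the least abundant, at 0.197, 0.790, 0.752 and 0.411 CPM in the untreated wild types and at 3.02, 0.102, 0.386 and 0 CPM in WT + TAM. It was at 0.0262, 0.242, 0.0953 and 0 CPM in Mtm1-/y and at 0.159, 0.371 and 0.227 CPM in Mtm1-/y + TAM. These values rest on 59 counts over the WT group, 92 over WT + TAM, 10 over Mtm1-/y and 26 over Mtm1-/y + TAM, and the 2 counts of 0 allow up to 0.114 CPM in WT + TAM replicate 4 and 0.0672 CPM in Mtm1-/y replicate 4. All pairs of groups overlapped.

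*Cfd*, the adipsin gene, was at 2.41, 5.65, 5.75 and 4.55 CPM in the 4 untreated wild types and at 34.6, 5.91, 2.97 and 0.381 CPM in WT + TAM. It was at 3.79, 3.83, 2.16 and 0.560 CPM in Mtm1-/y and at 4.13, 10.9 and 5.26 CPM in Mtm1-/y + TAM. WT + TAM replicate 1 was again highest and WT + TAM replicate 4 lowest, and the 3 treated mutants lay above the 4 untreated mutants.

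**Figure D1:**
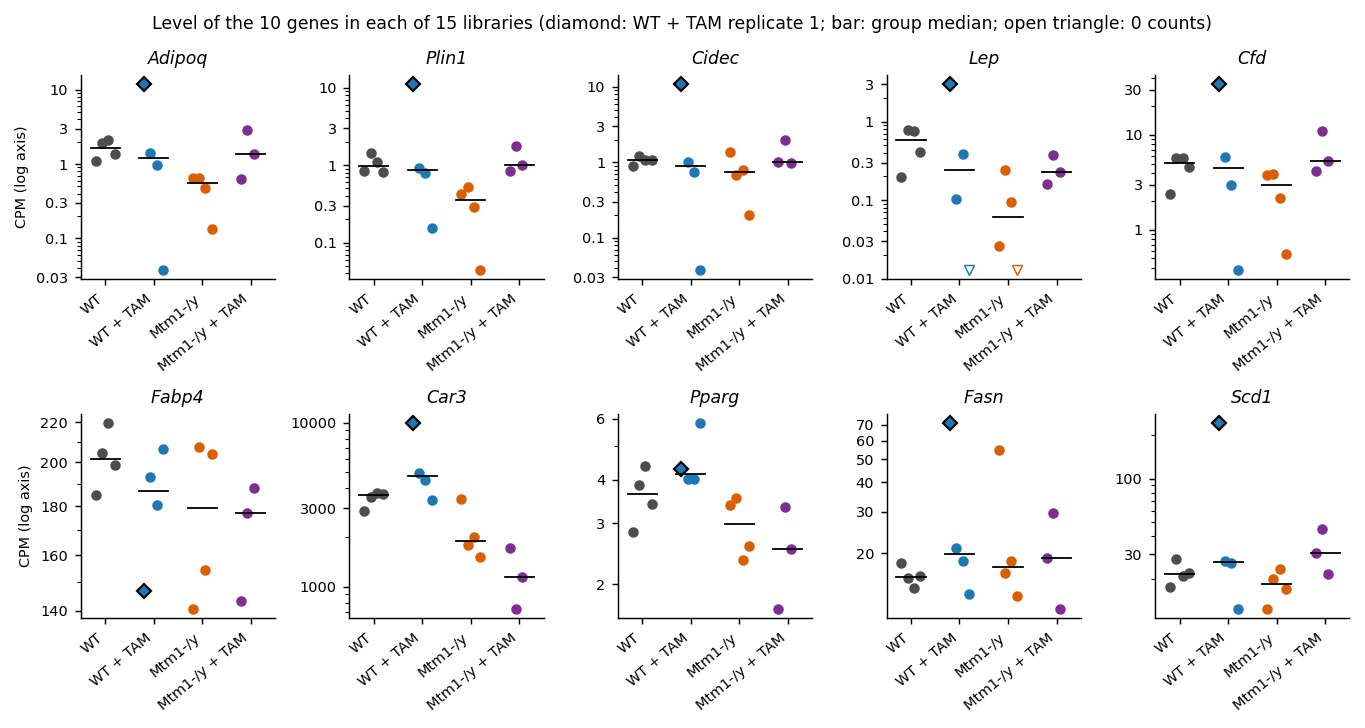
Level of each of the 10 genes in each library, in CPM on a log axis, by group; points are libraries, bars are group medians, open triangles are counts of 0, and WT + TAM replicate 1 is a diamond. The marked library is highest for 8 of the 10 genes, at 12 CPM of *Adipoq* and 243 CPM of *Scd1*, and lies within the range of the others for *Pparg* and *Fabp4*.

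*Fabp4* varied least among libraries. It was at 185, 204, 219.6 and 199 CPM in the 4 untreated wild types, 147, 193, 180.3 and 206 CPM in WT + TAM, 141, 208, 155 and 204 CPM in Mtm1-/y and 143, 177 and 188 CPM in Mtm1-/y + TAM. The library with the most *Adipoq* was among the lowest for *Fabp4*, ranking 13 of 15, and all groups overlapped.

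*Car3* was at 2880.3, 3524, 3718 and 3686 CPM in the 4 untreated wild types and at 9952, 4952, 4479 and 3374 CPM in WT + TAM. It was at 3443, 1804, 2016 and 1512 CPM in Mtm1-/y and at 1726, 732 and 1146 CPM in Mtm1-/y + TAM. All 3 treated mutants lay below all 8 wild-type libraries, and the untreated mutants did so with the exception of replicate 1.

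*Pparg*, the differentiation factor, had a narrow range. It was at 2.83, 3.87, 4.38 and 3.40 CPM in the untreated wild types, 4.29, 4.03, 4.03 and 5.83 CPM in WT + TAM, 3.37, 3.55, 2.35 and 2.58 CPM in Mtm1-/y and 1.70, 3.34 and 2.52 CPM in Mtm1-/y + TAM. The highest library was WT + TAM replicate 4, the one with the least *Adipoq*, and the treated groups did not overlap.

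*Fasn* was at 18.2, 15.7, 14.3 and 16.1 CPM in the 4 untreated wild types and at 71.2, 21.1, 18.6 and 13.4 CPM in WT + TAM. It was at 54.7, 16.5, 18.6 and 13.2 CPM in Mtm1-/y and at 19.1, 29.6 and 11.6 CPM in Mtm1-/y + TAM. A pair of libraries stood above the others, WT + TAM replicate 1 and Mtm1-/y replicate 1, and all groups overlapped.

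*Scd1* was at 17.7, 27.8, 21.2 and 22.2 CPM in the 4 untreated wild types and at 243, 26.9, 26.2 and 12.5 CPM in WT + TAM. It was at 12.5, 20.2, 23.7 and 17.1 CPM in Mtm1-/y and at 30.5, 44.7 and 21.7 CPM in Mtm1-/y + TAM. Mtm1-/y replicate 1, high for *Fasn*, was the lowest of 15 for *Scd1*, and the groups overlapped.

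WT + TAM replicate 1 exceeded the median of the other 14 libraries 14.3-fold for *Lep*, 13.5-fold for *Plin1*, 11.6-fold for *Adipoq*, 11.1-fold for *Cidec*, 11.1-fold for *Scd1*, 8.68-fold for *Cfd*, 4.11-fold for *Fasn* and 3.18-fold for *Car3*. For *Pparg* the ratio was 1.27 (rank 3 of 15) and for *Fabp4* 0.771. The genes particular to fat cells were thus all higher in this library, and more fat cells and more RNA per cell cannot be told apart in bulk tissue.

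Other marker lists also stood highest of 15 in that library. Brown fat markers summed to 28.9 CPM (2.53 to 21.8 in the other 14), and most of that sum was *Ucp1* (16.4 CPM, rank 2 of 15). *Zic1*, a transcription factor gene of brown fat and of neural tissue, was at 9.52 CPM against 0.0807 to 0.582. *Dio2* (1.96 CPM), *Otop1* (0.899 CPM) and *Elovl3* (1 count) lay within the range of the other libraries, and *Lhx8* had 2 counts. Slow fibre markers summed to 1593 CPM (139 to 514), with the slow myosin gene *Myh7* at 439 CPM against 1.45 to 37.7. Markers of fibro-adipogenic progenitors, the connective tissue cells of muscle, summed to 1796 CPM (690.2 to 1598), and those of peripheral nerve to 208 CPM (74.6 to 148).

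Not every list followed. Endothelial markers summed to 457 CPM in WT + TAM replicate 1, rank 11 of 15, and skin markers to 2.57 CPM, rank 14. The sum of fatty acid and triglyceride synthesis genes ranked 10 of 15, although *Fasn* and *Scd1* ranked first. The largest parts of that sum, 1738 to 1883 CPM in WT, were *Acacb* (mean 394 CPM in WT), *Gpam* (318 CPM), *Acsl1* (317 CPM) and *Lpin1* (306 CPM). Its rank thus says little about the less abundant genes of the list. *Car3*, which ranked first, is made by both slow fibres and fat cells, and the parts of each in its level were not tested. Adipocyte markers outside the 10 genes summed to 818 CPM, rank 3, and most of that sum was *Plin4* (720.5 CPM), which muscle fibres also make. That rank, too, says little about the less abundant genes of the list. Among these, *Lgals12* (2.08 CPM), *Retn* (1.14 CPM) and *Pck1* (11.3 CPM) were highest of 15 in WT + TAM replicate 1. The other 14 libraries reached at most 0.371, 0.688 and 5.69 CPM. *Aqp7* and *Pnpla3* went the other way and were lowest there among the WT + TAM libraries.

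**Figure D2:**
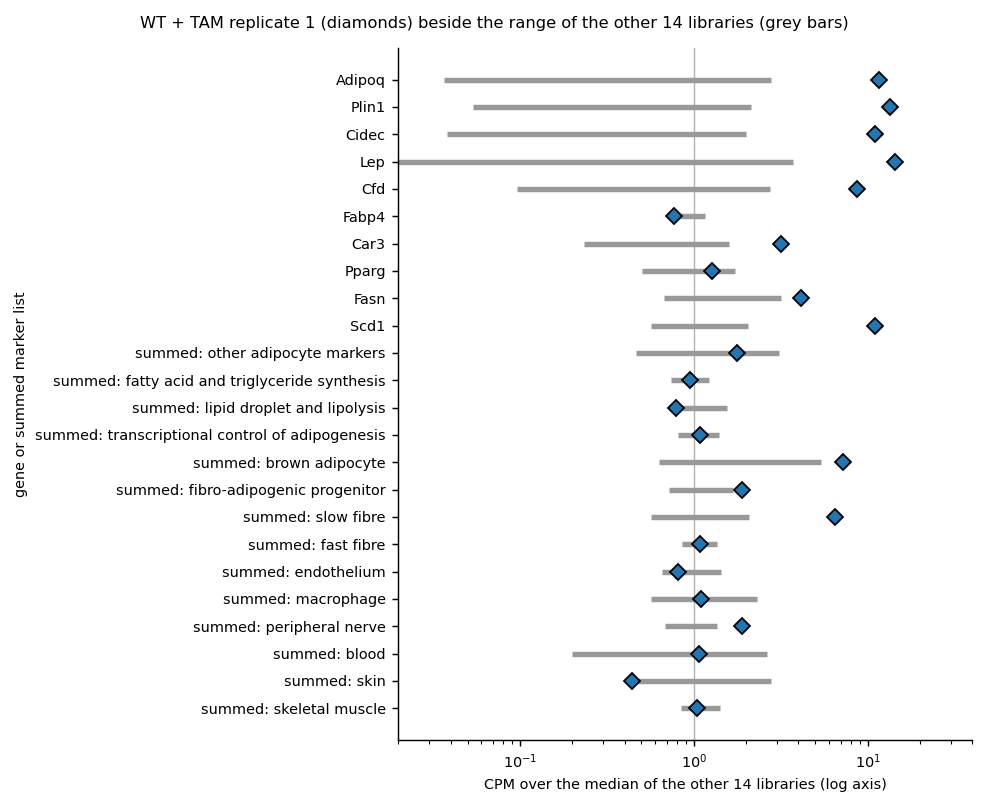
Level in WT + TAM replicate 1 divided by the median of the other 14 libraries (log axis), for the 10 genes and for the summed CPM of each marker list; diamonds are that library and grey bars the range of the other 14, with the bar of *Lep* running off the left edge because it reaches 0. Ratios are over 8 for *Adipoq*, *Plin1*, *Cidec*, *Lep*, *Cfd* and *Scd1* and 0.771 for *Fabp4*, and the slow fibre list is at 6.47 and the endothelium list at 0.809.

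The levels of the other genes were then set beside those of *Adipoq* within each library, over the 13 libraries with at least 10 *Adipoq* counts. The count of *Plin1* was 0.532 to 1.33 times that of *Adipoq*, that of *Cidec* 0.511 to 2.08 times, and that of *Cfd* 2.18 to 6.5 times, the narrowest relative ranges of the 9 genes. For *Lep* the ratio was 0.04 to 0.408. The ratio of *Scd1* to *Adipoq* was 10.2 to 49.7 and that of *Fasn* 5.93 to 83.7. Those of *Pparg* (0.357 to 5.5), *Fabp4* (12.2 to 324) and *Car3* (254 to 5266) varied most.

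As a description over libraries that share groups, the log2 level of each remaining gene was correlated with the mean z-score of *Adipoq*, *Plin1* and *Cidec*. Pearson's r over 15 libraries, and over 14 without WT + TAM replicate 1, was 0.976 and 0.971 for *Cfd*, 0.885 and 0.804 for *Lep*, and 0.828 and 0.672 for *Scd1*. For *Fasn* it was 0.617 and 0.292, and for *Car3* 0.341 and -0.055. *Pparg* (0.0688 and -0.121) and *Fabp4* (-0.344 and -0.115) did not follow the 3 genes with or without the library.

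Outside the 10 genes, those with the most similar pattern over 15 libraries were *Lgals12* (r = 0.935), *Retn* (0.917), *Hp* (0.909), *Cbr2* (0.904) and *Pck1* (0.903). Over 14 libraries they were *Retn* (0.902), *Lgals12* (0.879), *Pck1* (0.828), *Pam16* (0.825) and *Hp* (0.825). *Retn* encodes resistin, secreted by mouse fat cells, and *Lgals12* a galectin of the lipid droplet, so 4 genes were among the nearest 5 with and without the library.

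**Figure D3:**
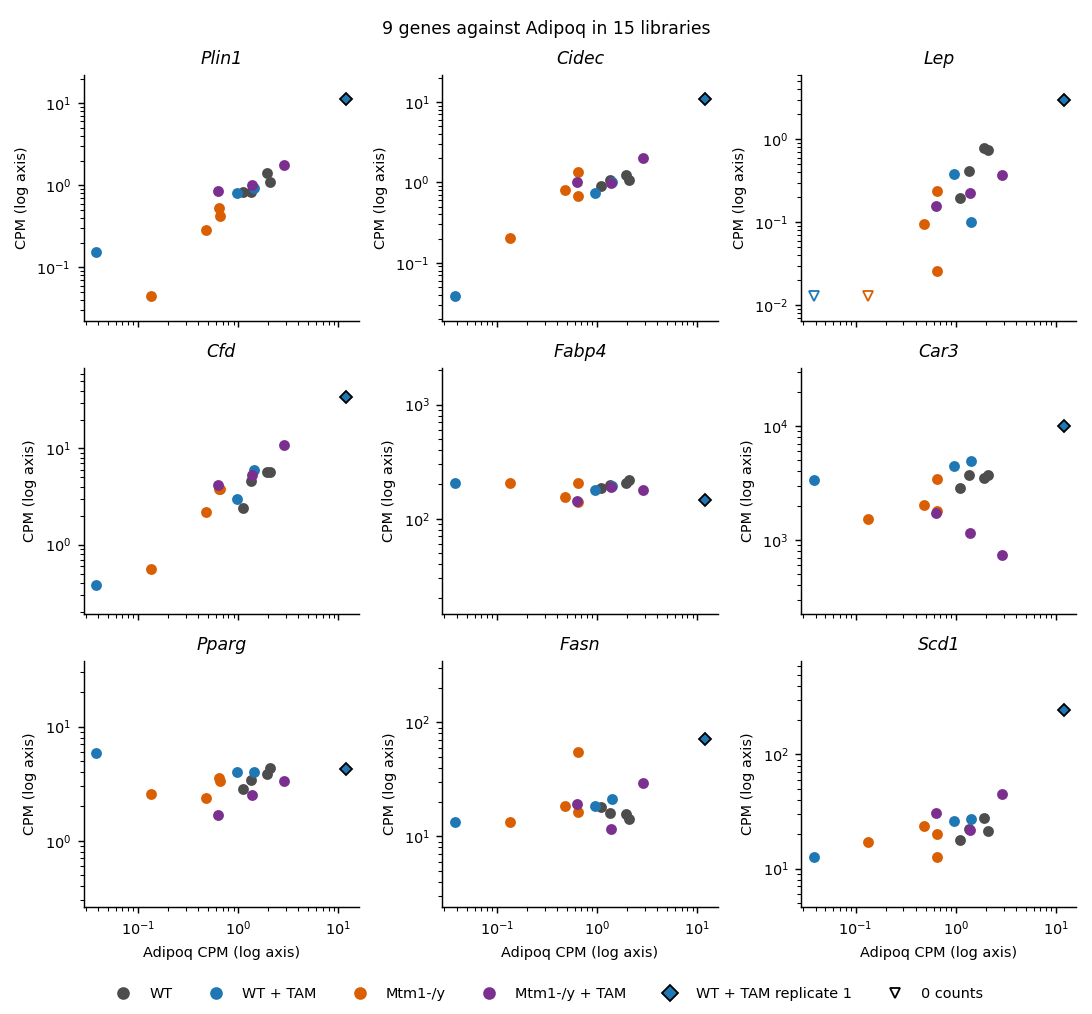
Level of each remaining gene against the level of *Adipoq*, in CPM on log axes, 1 point per library coloured by group, with WT + TAM replicate 1 as a diamond and counts of 0 as open triangles at the lower edge. *Plin1*, *Cidec*, *Cfd* and *Lep* rise with *Adipoq*, *Scd1* follows in part, and *Fabp4*, *Car3* and *Pparg* show no common slope with *Adipoq*.

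The comparison of Mtm1-/y with WT asks whether loss of *Mtm1* moves these genes in untreated muscle. With all 15 libraries in the edgeR quasi-likelihood fit, 0 of the 10 genes passed an adjusted p of 0.05, where 30.4% of all 15533 tested genes did. None had an unadjusted p under 0.05 (0 of 10), and DESeq2 and limma-voom each called 0. The largest log2 fold changes were those of *Lep* (-2.70 ± 1.26 SE, adjusted p = 0.121), *Adipoq* (-1.78 ± 1.06, adjusted p = 0.223) and *Plin1* (-1.76 ± 1.08, adjusted p = 0.235). The CPM ranges of *Adipoq* and *Plin1* did not overlap between the groups, both lower in Mtm1-/y, and of all tested genes 15.7% were lower without overlap.

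The shared estimate of spread in that fit rests in part on WT + TAM replicate 1, although neither group holds it. Without that library the fold changes hardly moved and the errors shrank. *Plin1* was then lower in Mtm1-/y (-1.76 ± 0.55, edgeR adjusted p = 0.0230) and so was *Lep* (-2.71 ± 0.85, adjusted p = 0.0236), which makes 2 of 10 called where 33% of all genes were. *Adipoq* was at -1.78 ± 0.66 (adjusted p = 0.0522). In a fit of the 8 libraries of these groups alone, *Adipoq* (-1.77 ± 0.43, edgeR adjusted p = 0.0132) and *Plin1* (-1.76 ± 0.51, adjusted p = 0.0284) were called. The share of all genes called in that fit is not given here. It was 30.4% with all libraries and 33% without WT + TAM replicate 1, so 2 of 10 is no more than these shares.

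The other genes of this comparison stood nearer to 0 or varied more. *Cidec* differed by -0.49 ± 1.02 (adjusted p = 0.750), *Cfd* by -0.84 ± 0.96 (adjusted p = 0.546) and *Scd1* by -0.28 ± 0.73 (adjusted p = 0.808). *Fasn* was at 0.68 ± 0.56 (edgeR adjusted p = 0.384), a value carried by Mtm1-/y replicate 1 at 54.7 CPM, and without both that library and WT + TAM replicate 1 its difference was -0.0038. *Car3* was at -0.65 ± 0.34 (adjusted p = 0.161), and without both libraries it was lower and called (-0.96 ± 0.24, adjusted p = 0.00806), as was *Plin1*, which makes 2 of 10 where 34.2% of all genes were. *Pparg* (-0.29 ± 0.22, adjusted p = 0.339) and *Fabp4* (-0.19 ± 0.14, adjusted p = 0.317) did not pass. The median over the 10 genes was -0.57, beside 0.0005 over all tested genes.

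Markers of other cells moved in this comparison as well. Of 10 endothelial markers, 7 were lower in Mtm1-/y, where 14.9% of all tested genes were, with sums of 400.2 to 495 CPM against 635 to 808 CPM in WT. Slow fibre markers summed to 219 to 324 CPM in Mtm1-/y and 139 to 192 CPM in WT, but did not all move 1 way. Of 9, 1 was called higher and 1 lower, *Myl3* (-3.81, edgeR adjusted p = 0.000125), beside 15.5% and 14.9% of all tested genes. Without WT + TAM replicate 1, 5 were higher and 1 lower, where 33% of all genes were called. The part of endothelium and slow fibres in the levels of *Fabp4* and *Car3* was not tested.

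Under tamoxifen, comparing Mtm1-/y + TAM with WT + TAM, 2 of the 10 genes were called, both lower, where 9.46% of all tested genes were called lower and 20.1% in either direction. DESeq2 and limma-voom called 2 each. *Car3* fell by 2.24 on the log2 scale (± 0.39 SE, 95% interval -3.09 to -1.40, edgeR adjusted p = 0.00169), which is 4.74-fold lower. Without WT + TAM replicate 1, the library with the most *Car3*, the difference was -1.83 ± 0.32 (edgeR adjusted p = 0.00155), and in fits without any 1 library its adjusted p was between 0.00075 and 0.0109. Slow fibre markers, whose cells also make *Car3*, summed to 277 to 514 CPM in Mtm1-/y + TAM and 140 to 1593 CPM in WT + TAM, where 1593 CPM was replicate 1 and the others reached 344 CPM at most, and their part in this difference was not tested.

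*Pparg* fell by 0.83 on the log2 scale (± 0.24, 95% interval -1.34 to -0.32, edgeR adjusted p = 0.0231), which is 1.78-fold lower, and did so without WT + TAM replicate 1 (-0.86 ± 0.26, adjusted p = 0.0279, where 21.5% of all genes were called). This call rested on few libraries. It was lost without WT + TAM replicate 4 (-0.69, edgeR adjusted p = 0.0685), without Mtm1-/y + TAM replicate 1 (-0.63, adjusted p = 0.0986) and without Mtm1-/y + TAM replicate 3 (-0.82, adjusted p = 0.0704), and with scaling by library size alone (-0.67, adjusted p = 0.0783). The ranges of *Car3* and *Pparg* did not overlap between the treated groups, and of all tested genes 14.4% were lower without overlap.

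The 5 genes particular to fat cells turned direction in this comparison when WT + TAM replicate 1 was left out. *Adipoq* went from -1.09 ± 1.02 to 1.08 ± 0.72 (edgeR adjusted p = 0.498 and 0.314) and *Cfd* from -0.67 ± 0.99 to 1.18 ± 0.77 (adjusted p = 0.686 and 0.306). *Plin1* went from -1.40 to 0.98, *Cidec* from -1.24 to 1.17 and *Lep* from -1.72 to 0.47. *Scd1* went from -1.26 ± 0.80 to 0.56 ± 0.32 (edgeR adjusted p = 0.302 and 0.237) and *Fasn* from -0.62 to 0.19. None of these passed the test in either fit, and the median over the 10 genes went from -1.16 to 0.52, beside -0.02 over all genes with all libraries.

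Tamoxifen in wild types, WT + TAM against WT, called 0 of the 10 genes, where 0.309% of all tested genes were called. Of the 10, 1 had an unadjusted p under 0.05, *Scd1* at 1.8 ± 0.74 (edgeR adjusted p = 0.386), and without WT + TAM replicate 1 its difference was -0.02 ± 0.30 (adjusted p = 0.989). DESeq2 and limma-voom called 0 each. With all libraries *Plin1* was at 1.64, *Cidec* at 1.57, *Cfd* at 1.26, *Adipoq* at 1.16, *Fasn* at 0.95 and *Lep* at 0.74. Without the library *Plin1* was at -0.74, *Cidec* at -0.84, *Cfd* at -0.59, *Adipoq* at -1.0, *Lep* at -1.44 and *Fasn* at 0.13. The positive direction of *Adipoq*, *Plin1*, *Cidec*, *Lep*, *Cfd* and *Scd1* thus came from 1 of the 4 treated wild-type libraries.

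*Car3* (0.72 ± 0.34, edgeR adjusted p = 0.446), *Pparg* (0.33) and *Fabp4* (-0.15) did not pass with all libraries, and were at 0.31, 0.36 and -0.06 without WT + TAM replicate 1. None of the 10 genes had ranges without overlap between WT + TAM and WT (8.08% of all tested genes did). The median over the 10 genes was 1.06 with the library and -0.33 without it.

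Tamoxifen in mutants, Mtm1-/y + TAM against Mtm1-/y, also called 0 of the 10 genes, where 0.0129% of all tested genes were called, and DESeq2 and limma-voom called 0 each. Of the 10, 1 had an unadjusted p under 0.05, *Car3* at -0.87 ± 0.37 (edgeR adjusted p = 0.855). *Plin1* was at 2.01 ± 1.12 (edgeR adjusted p = 0.855), *Adipoq* at 1.85 ± 1.1 (adjusted p = 0.860), *Lep* at 1.73 and *Cfd* at 1.42 ± 1.01 (adjusted p = 0.877). Without WT + TAM replicate 1 the error of *Plin1* was 0.57, with an edgeR adjusted p of 0.636. The ranges of *Plin1* and *Cfd* did not overlap, both higher in the treated mutants, and 3.33% of all tested genes were higher without overlap.

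*Cidec* and *Scd1* were both at 0.82, *Fasn* at -0.36, *Pparg* at -0.21 and *Fabp4* at -0.06 in that comparison, and the median over the 10 genes was 0.82. The sum of *Adipoq*, *Plin1*, *Cidec*, *Lep* and *Cfd* was 0.941 to 6.25 CPM in Mtm1-/y and 6.78 to 18 CPM in Mtm1-/y + TAM, beside 5.46 to 11 CPM in WT. Treated mutants thus overlapped the untreated wild types in this sum, and Mtm1-/y replicate 1 at 6.25 CPM was close to the lowest treated mutant at 6.78 CPM. Connective tissue progenitor markers summed to 948 to 1370.1 CPM in Mtm1-/y and 1228 to 1598 CPM in Mtm1-/y + TAM, which overlap. In Mtm1-/y, replicate 1 had the highest sum of the 5 genes and the lowest progenitor sum (948 CPM), close to replicate 3 (956 CPM). Replicate 2, with a similar sum of the 5 genes (5.93 CPM), had a progenitor sum of 1327 CPM.

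The interaction asks whether the drug's effect differed between genotypes. No gene of the 15533 passed in edgeR (0%), and so 0 of the 10 genes did; limma-voom called 0 genes and DESeq2 74 of all tested genes, with 1650 (10.6%) at an unadjusted p under 0.05. Among the 10 genes, *Car3* had an unadjusted p under 0.05 (-1.59 ± 0.50, edgeR adjusted p = 0.379), and without WT + TAM replicate 1 it was at -1.18 ± 0.41 (adjusted p = 0.325). *Plin1* went from 0.37 to 2.74 ± 0.80 (edgeR adjusted p = 0.245) and *Adipoq* from 0.69 to 2.86 ± 0.98 (adjusted p = 0.317) without that library. *Pparg* was at -0.55 ± 0.32 (adjusted p = 0.563).

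**Figure D4:**
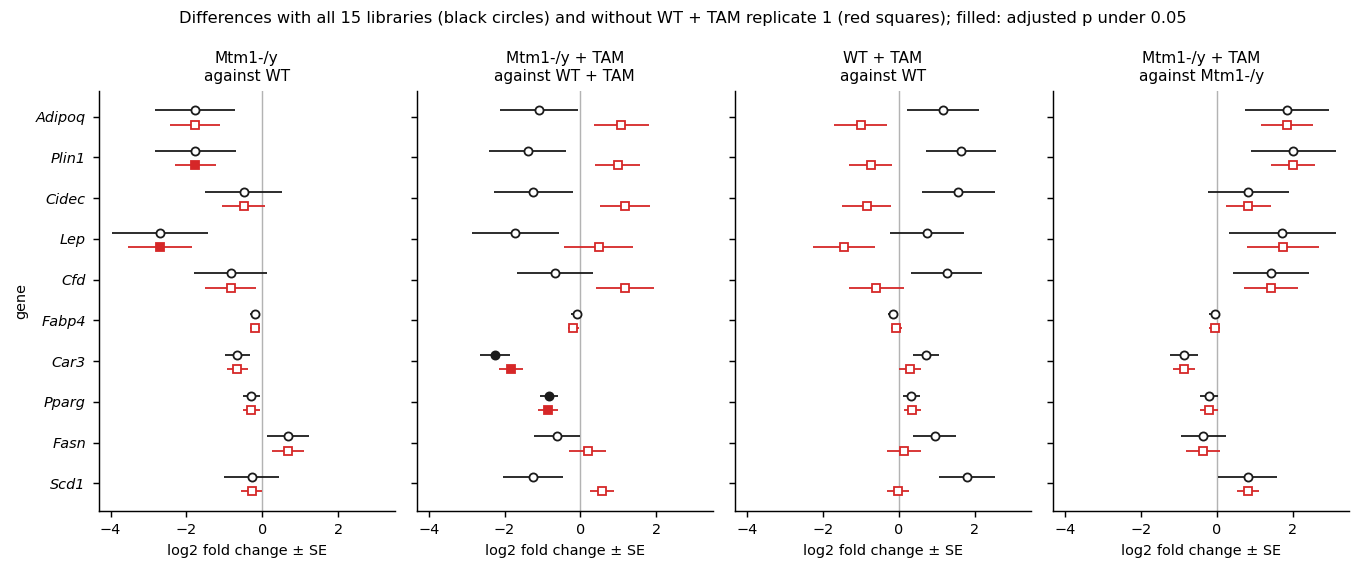
Log2 fold change of the 10 genes in the 4 pairwise comparisons, with all 15 libraries and without WT + TAM replicate 1; bars are the standard error of the edgeR fit and filled points passed an adjusted p of 0.05. Only *Car3* and *Pparg* passed with all libraries, and the fat cell genes change side in the 2 comparisons that use WT + TAM.

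Genes of the same pathways outside the 10 were read from 4 lists. In Mtm1-/y against WT, 2 of 16 tested adipocyte markers were called higher and 4 lower (median -0.71), beside 15.5% higher and 14.9% lower of all tested genes (30.4% in all). *Cidea*, a droplet protein of brown fat and relative of *Cidec*, rose by 1.64 ± 0.39 (edgeR adjusted p = 0.00556) and *Plin4* by 1.27 ± 0.44 (adjusted p = 0.0454). The call of *Plin4* was lost in 13 of 15 fits without a library, most of all without Mtm1-/y replicate 1 (0.75, adjusted p = 0.176). *Ces1d*, a triglyceride hydrolase, fell by 2.31 (± 0.39, edgeR adjusted p = 0.00061) and *Adig*, adipogenin, by 1.92 (± 0.37, adjusted p = 0.00154).

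*Cidea* was at 1.82, 1.26, 1.15 and 0.968 CPM in the 4 untreated wild types and at 7.61, 3.23, 2.48 and 3.00 CPM in Mtm1-/y, without overlap. It stayed between 0.357 and 1.41 CPM in WT + TAM, including replicate 1, and at 3.55, 3.57 and 3.63 CPM in Mtm1-/y + TAM, where it was the 1 adipocyte marker of 16 called between the treated groups (1.89 ± 0.42, edgeR adjusted p = 0.00628). Its pattern thus followed genotype and not the library rich in *Adipoq*.

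*Plin4*, a perilipin of fibres and fat cells, was at 262 to 334 CPM in WT and at 1367, 441, 891 and 163 CPM in Mtm1-/y, so the groups overlapped through replicate 4. *Ces1d* was at 4.94 to 7.11 CPM in WT, 1.91 to 6.42 CPM in WT + TAM, 0.706 to 2.46 CPM in Mtm1-/y and 1.54 to 1.84 CPM in Mtm1-/y + TAM.

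Of 21 tested genes of fatty acid and triglyceride synthesis, 2 were higher and 7 lower in Mtm1-/y than in WT (median -0.24), again beside 15.5% and 14.9% of all tested genes. *Acaca*, which makes malonyl-CoA for *Fasn*, rose by 0.73 ± 0.26 (edgeR adjusted p = 0.0455) and *Dgat1*, which makes triglyceride, by 0.58 ± 0.09 (adjusted p = 0.000465). *Acaca* was at 3.34 to 4.07 CPM in WT and at 10.4, 5.53, 4.10 and 4.93 CPM in Mtm1-/y. Its call was lost in 11 of 15 fits without a library, and without Mtm1-/y replicate 1 the difference was 0.36 (adjusted p = 0.192). *Scd2*, the desaturase paralogue of *Scd1*, fell by 1.01 (± 0.23, edgeR adjusted p = 0.00444) and *Me1*, malic enzyme, by 0.93 (± 0.17, adjusted p = 0.000954). *Scd2* was at 30.9 to 50.1 CPM in WT and 15.5 to 25.2 CPM in Mtm1-/y, without overlap, where *Scd1* overlapped.

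Between the treated groups 0 of these 21 were higher and 5 lower (median -0.31), and 1 higher and 7 lower without WT + TAM replicate 1. Of all tested genes 10.6% were higher and 9.46% lower with all libraries, and 21.5% were called without that library. *Srebf1*, the transcription factor that drives *Fasn* and *Scd1*, fell by 1.26 (± 0.30, edgeR adjusted p = 0.00963) and *Scd2* by 1.2 (± 0.25, adjusted p = 0.00489). *Srebf1* was at 59.3, 61.1, 97.3 and 55.4 CPM in WT + TAM and at 31.6, 25.5 and 28.7 CPM in Mtm1-/y + TAM. In untreated WT it was at 39.6 to 53.5 CPM, between these groups.

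Of 13 lipid droplet and lipolysis genes, 1 was higher and 2 were lower in Mtm1-/y than in WT (median -0.13), beside 30.4% of all tested genes called. Without WT + TAM replicate 1, 2 were higher and 2 lower, beside 33% of all genes called, so the list was near the share of all genes. *Pnpla2*, the first lipase of stored triglyceride, rose by 1.12 ± 0.33 (edgeR adjusted p = 0.0192). It was at 194 to 239 CPM in WT and at 935, 342, 348 and 269 CPM in Mtm1-/y, without overlap. Without Mtm1-/y replicate 1 its difference was 0.55 (adjusted p = 0.0290), and without WT replicate 1 the call was lost (1.06, adjusted p = 0.0515). *Mgll*, the lipase of the last step, fell by 0.68 (± 0.18, edgeR adjusted p = 0.0107), as did *Hilpda* by 0.56 (± 0.19, adjusted p = 0.0383), whose call was lost in 6 of 15 fits without a library, with an adjusted p of up to 0.109 (without Mtm1-/y replicate 3). Between the treated groups *Plin2* rose by 0.81 ± 0.16 (adjusted p = 0.00343) and *Plin3* fell by 1.82 (± 0.42, adjusted p = 0.00883).

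Among 15 transcriptional regulators of fat cell formation, 5 were higher and 4 lower in Mtm1-/y than in WT (median 0.11), beside 15.5% and 14.9% of all tested genes. *Klf5* rose by 2.57 ± 0.35 (edgeR adjusted p = 0.000165) and *Cebpb* by 2.22 ± 0.35 (adjusted p = 0.000395), and both act early in differentiation, upstream of *Pparg*. *Zfp423* fell by 0.71 (± 0.15, adjusted p = 0.00255) and *Prdm16* by 0.70 (± 0.24, adjusted p = 0.0351), whose call was lost in 5 of 15 fits without a library, with an adjusted p of up to 0.123 (without WT replicate 4). *Klf5* was at 1.95 to 3.05 CPM in WT, 1.93 to 3.35 CPM in WT + TAM, 5.88, 21.7, 13.1 and 19.2 CPM in Mtm1-/y and 16.0, 19.7 and 12.1 CPM in Mtm1-/y + TAM, so mutants lay above wild types with and without the drug.

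Between the treated groups 2 of the 15 regulators were higher and 3 lower (median -0.49), beside 10.6% and 9.46% of all tested genes. *Klf5* rose by 2.59 ± 0.37 (edgeR adjusted p = 0.000367) and *Id2* by 1.18 ± 0.37 (adjusted p = 0.0363), while *Ppara*, the fatty acid oxidation receptor, fell by 1.12 (± 0.36, adjusted p = 0.0418) and *Rxra*, the partner of *Pparg* on DNA, by 0.61 (± 0.13, adjusted p = 0.00375). The calls of *Id2* (6 of 15 fits, adjusted p of up to 0.0995 without Mtm1-/y + TAM replicate 1) and *Ppara* (9 of 15, up to 0.161 without Mtm1-/y + TAM replicate 3) were lost without single libraries, and those of *Klf5* and *Rxra* were not.

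In the tamoxifen comparisons and the interaction edgeR called 0 genes of these 4 lists. At an unadjusted p under 0.05 the counts were 3 of 16 adipocyte markers, 1 of 21 synthesis genes, 2 of 13 droplet genes and 3 of 15 regulators in wild types, 2, 1, 0 and 7 in mutants, and 3, 2, 1 and 4 in the interaction, in the same order. Of all tested genes 11.3% in wild types, 5.54% in mutants and 10.6% in the interaction had such a p.

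**Figure D5:**
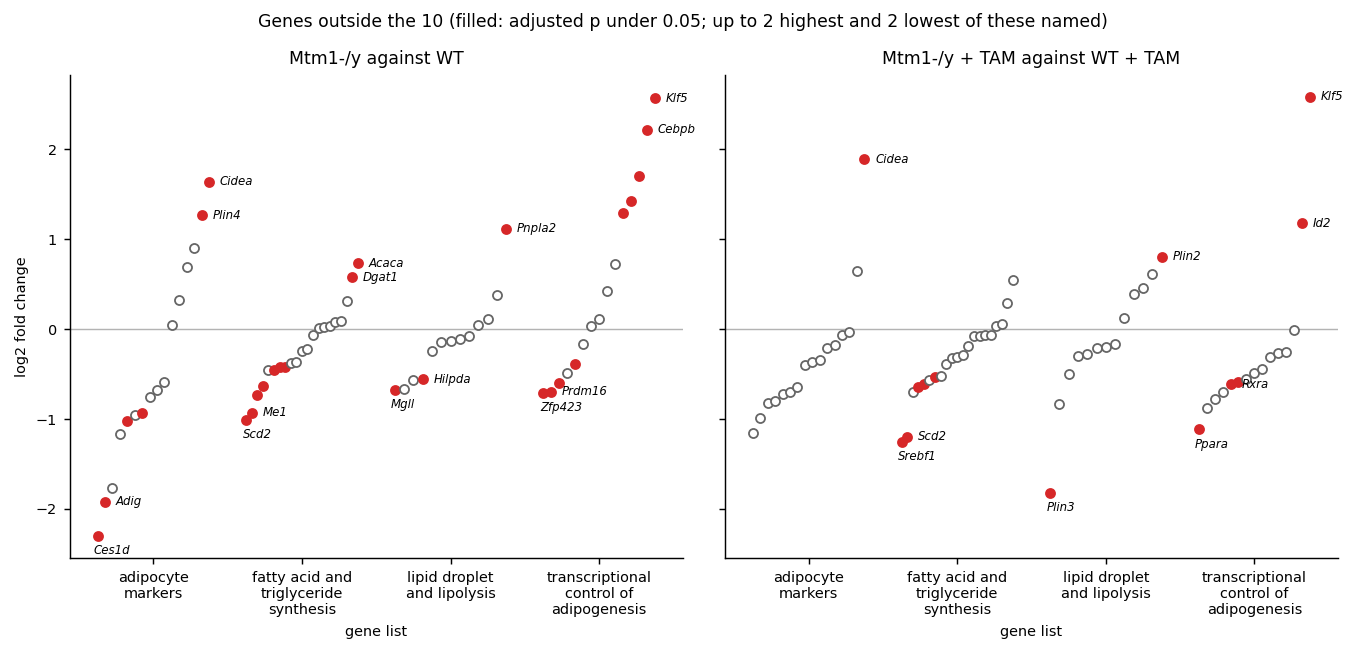
Log2 fold change of every tested gene of the 4 lists in Mtm1-/y against WT and in Mtm1-/y + TAM against WT + TAM, 1 point per gene, filled where the edgeR adjusted p was under 0.05; up to 2 of the highest and 2 of the lowest called genes are named in each list. Called genes lie on both sides of 0 in the lists of the untreated comparison, with *Klf5* at 2.57 and *Ces1d* at -2.31.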

How the data were processed

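Stranded mRNA libraries (TruSeq) from 15 muscles were sequenced. The authors deposited raw counts per Ensembl gene, with no normalization. Per the processing notes the tools were STAR 2.5.3a, HTSeq 0.6.1p1, Bowtie2 2.2.8 and cutadapt 1.10, on mm10 or GRCm38; their roles, the strand setting and annotation release were not given in the sources used here. Symbols, positions and exon lengths came from GENCODE M21.

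Counts were tested with edgeR 4.0.16 (R 4.3.3): filterByExpr (minimum count 10), TMM factors, a quasi-likelihood fit of 4 group means to all libraries (11 residual degrees of freedom) and Benjamini-Hochberg adjustment over all tested genes. The common coefficient of variation between samples of a group was 20.8%. The pipeline was tested on simulated data. A count of 0 allows up to 3 counts, which covers counting error only. The permutation test planned for genes under the filter was not needed.

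Genes and lists were chosen with earlier results of these data known. Named were the 10 genes, and of each list the 2 highest and 2 lowest called fold changes. *Zic1*, *Myh7* and *Ucp1* were chosen after their values were seen. Promoters came from RefSeq, which matched 7 of the 10 genes (not *Fabp4*, *Car3* and *Scd1*). Those of *Plin1*, *Pparg* and *Fasn* are not shown. Alternatives used DESeq2 1.42.0, limma 3.58.1 (voom), other scalings and filters, a replicate block, 2 groups alone, a marker sum as covariate and leaving out libraries. A covariate from *Adipoq*, *Plin1* and *Cidec*, and leaving out each library for the called list genes, were chosen after seeing the data.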

Additional observations from a re-analysis of the deposited data

Results flagged for a closer look

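In each group of 4 libraries, the highest and lowest values of each of the 10 genes were examined by Dixon's test at the 95% level. It divides the gap to the nearest value by the range of all 4. The group of 3 was not tested. Of 30 gene and group pairs 9 passed, and the genes are not independent of each other. WT + TAM replicate 1 was known to stand apart in these genes before the test. The number of passes thus only describes the libraries and cannot be set against a chance rate.

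WT + TAM replicate 1 gave 7 of the 9. It was at 12 CPM for *Adipoq* (0.0381 to 1.43 in the other 3 libraries of its group), 11.2 CPM for *Plin1* (0.153 to 0.918), 11 CPM for *Cidec* (0.0381 to 1.02) and 3.02 CPM for *Lep* (0 to 0.386). It was also at 34.6 CPM for *Cfd* (0.381 to 5.91), 71.2 CPM for *Fasn* (13.4 to 21.1) and 243 CPM for *Scd1* (12.5 to 26.9). Of the remaining pair of values, 1 was *Pparg* in WT + TAM replicate 4 (5.83 CPM, 4.03 to 4.29 in the others) and 1 was *Fasn* in Mtm1-/y replicate 1 (54.7 CPM, 13.2 to 18.6 in the others).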

How the results depend on the processing

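Of 1357 values of the 10 genes under alternatives, 1273 kept direction and side of the threshold, 5 lost a call, 9 gained one and 70 changed direction. With 3 or 4 libraries a group and 10 to 92 counts of *Lep* a group, depth limits the low genes. The cause of the changes was not tested. For most of these fits the share of all genes called is not given here. The counts of called genes below are thus not set against the share of their own fit. Values are log2 fold changes. Mtm1-/y against WT: 1 of 10 was called instead of 0 with a replicate block (*Car3*, -0.79) or the marker sum (*Car3*, -1.01). It was 2 with 2 groups alone and 0 to 2 without libraries, beside 30.4% of all tested genes in the main fit. With the *Adipoq*, *Plin1* and *Cidec* sum only *Fabp4*, *Car3*, *Pparg*, *Fasn* and *Scd1* were read, and 1 of these 5 was called (*Fasn*, 1.13). *Fasn* was -0.036 with the marker sum and -0.0038 to 0.90 without libraries, and *Scd1* 0.65 with the 3-gene sum. Mtm1-/y + TAM against WT + TAM: 1 instead of 2 was called by library size alone or with an absolute change over 1, and 1 to 2 without libraries. Without libraries *Adipoq* was -1.77 to 1.1, *Plin1* -1.80 to 0.99, *Cidec* -1.67 to 1.18, *Lep* -2.13 to 0.47, *Cfd* -1.21 to 1.19, *Fabp4* -0.19 to 0.0078, *Fasn* -1.02 to 0.19 and *Scd1* -1.61 to 0.56; limma-voom gave *Adipoq* 0.72, *Plin1* 0.22, *Cidec* 0.71, *Lep* 0.14 and *Cfd* 0.83, and library size alone *Fabp4* 0.062. WT + TAM against WT, without libraries: *Adipoq* -1.0 to 1.58, *Plin1* -0.74 to 2.04, *Cidec* -0.84 to 1.98, *Lep* -1.44 to 1.16, *Cfd* -0.59 to 1.66 and *Scd1* -0.020 to 2.15; limma-voom gave *Adipoq* -0.68, *Cidec* -0.42, *Lep* -0.87 and *Cfd* -0.16, and the marker sum *Lep* -0.36 and *Fabp4* 0.036. Mtm1-/y + TAM against Mtm1-/y: *Fabp4* -0.15 to 0.048 and *Fasn* -0.76 to 0.33 without libraries, *Fasn* 0.13 with the marker sum, and *Fabp4* 0.052 and *Scd1* -0.17 with the 3-gene sum. Interaction, without libraries: *Plin1* -0.054 to 2.99, *Cidec* -1.18 to 2.16, *Cfd* -0.37 to 2.31, *Fabp4* -0.090 to 0.20, *Fasn* -1.70 to 0.19 and *Scd1* -1.33 to 0.84; *Cidec* was 1.53 with limma-voom, 0.26 with the replicate block and 1.36 with the marker sum, and *Fabp4* -0.17 with the last. A fit of 2 groups alone cannot give the interaction.

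Over 21 pairs of libraries with a shared replicate number, r of the deviations was -0.113 to 0.306, over 0.1 in 6. The highest were replicates 2 (0.306) and 1 (0.202) of Mtm1-/y and Mtm1-/y + TAM. Pairs with different numbers were not compared, so these values cannot say whether replicate numbers pair the samples. With the replicate block *Car3* had an adjusted p of 0.0326 between Mtm1-/y and WT (edgeR). Library size alone shifted the median of all genes by 0.15 in that comparison, with 3654 genes called higher and 1429 lower in place of 2407 and 2320, and by 0.14 between the treated groups, with 2685 and 783 in place of 1652 and 1469.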

Other observations

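*Ucp1*, the uncoupling protein that makes heat in brown fat, did not follow *Adipoq*. It was at 0.443, 0.277, 0.177 and 0.352 CPM in the untreated wild types, 16.4, 2.55, 0.820 and 1.07 CPM in WT + TAM, 2.48, 1.17, 0.890 and 2.98 CPM in Mtm1-/y and 13.7, 12.7 and 19.4 CPM in Mtm1-/y + TAM. All 11 libraries of the other groups lay above the 4 WT libraries, and the 3 treated mutants lay above the 4 untreated ones.

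With all libraries *Ucp1* passed no test, at 2.54 ± 0.97 in Mtm1-/y against WT (edgeR adjusted p = 0.0640), 3.97 ± 0.96 in WT + TAM against WT (adjusted p = 0.123), 2.99 ± 0.82 in Mtm1-/y + TAM against Mtm1-/y (adjusted p = 0.855) and 1.56 ± 0.79 between the treated groups (adjusted p = 0.183). Without WT + TAM replicate 1, *Ucp1* rose by 2.54 ± 0.48 in Mtm1-/y against WT (edgeR adjusted p = 0.00136), by 2.99 ± 0.40 in the mutants given tamoxifen (adjusted p = 0.0123) and by 3.44 ± 0.47 between the treated groups (adjusted p = 0.000252). It was at 2.09 ± 0.53 in the wild types given tamoxifen (adjusted p = 0.102).

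Other genes of brown fat did not share this pattern. *Zic1* was at 0.212, 0.582 and 0.101 CPM in Mtm1-/y + TAM, beside 0.266 to 0.469 CPM in WT, and *Dio2* at 1.86, 3.49 and 1.76 CPM beside 1.25 to 2.61 CPM. *Cidea*, higher in mutants, was at 3.55, 3.57 and 3.63 CPM in Mtm1-/y + TAM and overlapped the untreated mutants (2.48 to 7.61 CPM). *Ucp1* was singled out after its values were seen.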
